A study of Mus musculus with 24 samples.

Results

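Heat shock chaperones and co-chaperones were followed in the hippocampus of postnatal day 10 mice after hypoxia-ischemia, which models brain injury around birth. The set was chosen by gene name, with earlier results of these data known. It held 47 genes: cytosolic and mitochondrial heat shock proteins, their co-chaperones and the heat shock factors Hsf1 and Hsf2. They stood on 48 of the 22314 table lines that carried a gene name, because Hspa14 has 2 lines. All 48 lines passed the filter on low values (a normalized count of at least 10 in at least 2 libraries) and were among the 18364 lines tested.

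The animals were labelled Neil1-KO, titled Neil2-KO, or wild type (WT). Neil1 and Neil2 encode DNA repair glycosylases that cut out oxidized bases. From each genotype the ipsilateral and the contralateral hippocampus were sequenced at 6 h and at 3 h, with 2 libraries per group, labelled as biological replicates, 24 libraries and 12 groups in all. Whether these hours count the insult or the time after it is not clear from the labels. Every group shared the age and the hypoxia-ischemia, and no uninjured animals were analysed here, so each ipsilateral value stands against the other hemisphere of injured pups. The sides with the same replicate number were taken to come from 1 animal, which the labels do not state outright. The labels and notes name neither the strain nor the knockout alleles.

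Depth was 17771293 to 29252067 reads per library. The 8 libraries titled Neil2-KO carry a Neil1-KO genotype tag and were grouped by title. Neil2 counted 0 to 3.02 normalized counts in them, against 16.6 to 28.7 in the labelled Neil1-KO libraries and 15.2 to 27.8 in WT. Neil1 averaged 125.8 ± 23.3 normalized counts in the labelled Neil1-KO libraries, 97.4 ± 27.0 in Neil2-KO and 97.99 ± 22.2 in WT (SD, n = 8 each), so its RNA was not lower under the Neil1-KO label, and a count over the whole gene does not check a deletion of part of it. By Xist, 3 of the 12 animals were female, none of them WT. All 5 hippocampal markers were detected in every library, with summed levels of 5556 to 13990 normalized counts on the ipsilateral side and 18100 to 25810 on the contralateral side. Among the ipsilateral 6 h libraries 3 stood apart. Labelled Neil1-KO replicate 2 had the lowest neuronal marker sum (40590) and the highest endothelial sum (10890), and WT replicate 2 had the lowest hippocampal sum (5556) and the highest level of the thalamic marker Tcf7l2 (939.6). WT replicate 1 came next in Tcf7l2 (582.1), against at most 271.9 in the remaining libraries. The sum of the thalamic markers was 2477 in WT replicate 1 and 3437 in WT replicate 2, against at most 2140 in the remaining libraries.

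Heat shock proteins bind unfolded or misfolded polypeptides and hold, refold or hand them on for degradation. Hsp70 proteins work in cycles of ATP hydrolysis started by J-domain (Hsp40) proteins and ended by nucleotide exchange factors such as Hsp110 and Bag proteins, Hsp90 matures client proteins passed on by Hsp70, and small heat shock proteins hold unfolded clients without ATP. In unstressed cells the factor Hsf1 is kept inactive by chaperones, and on proteotoxic stress it forms trimers that bind heat shock elements, inverted repeats of GAA, upstream of inducible chaperone genes. In ischemic brain, inducible Hsp70 is a widely used marker of stressed cells.

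Heat shock element letters were looked for upstream of the members, and some of the strongly changed genes hold them while others do not. The members were chosen by name as heat shock genes and their partners. Because such elements stand upstream of inducible chaperone genes, the choice is not independent of this feature. RefSeq's promoter table (GRCm38.p6, an older build than the GRCm39 of the deposited table) matched 37 of the 47 members, and the 250 bases before the annotated start were searched on both strands for an inverted pair of units, GAANNTTC or TTCNNGAA. The Hspa1a window lies at chr17:34972157-34972406 and the Hspa1b window at chr17:34959239-34959488, both on the minus strand. They are printed in full because they belong to the neighbouring copies of the inducible Hsp70 gene, with the element letters in capitals, 5′ to 3′, ending at the base before the start.
Hspa1a: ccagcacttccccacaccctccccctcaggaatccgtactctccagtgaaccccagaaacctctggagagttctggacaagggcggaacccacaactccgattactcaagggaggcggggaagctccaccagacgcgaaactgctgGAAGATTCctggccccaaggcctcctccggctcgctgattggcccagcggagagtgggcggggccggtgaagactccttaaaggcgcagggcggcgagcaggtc
Hspa1b: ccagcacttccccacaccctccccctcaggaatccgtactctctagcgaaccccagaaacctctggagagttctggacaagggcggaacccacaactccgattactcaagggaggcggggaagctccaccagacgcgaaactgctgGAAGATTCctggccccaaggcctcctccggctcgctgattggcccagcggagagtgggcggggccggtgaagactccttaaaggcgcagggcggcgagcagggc
Over these 250 bases the copies differed at 3 positions (C44T, T47C and T249G, counted from 1 at the 5′ end, with the Hspa1a base first), none of them within the element.

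Shorter stretches of 150 bases are shown for 4 members that were higher on the ipsilateral side in every genotype and time: Hspb1 at chr5:135887769-135887918 (plus strand), Hsph1 at chr5:149636337-149636486 (minus strand), Dnaja4 at chr9:54699409-54699558 (plus strand) and Hspe1 at chr1:55087998-55088147 (plus strand). Capitals again mark the element letters.
Hspb1: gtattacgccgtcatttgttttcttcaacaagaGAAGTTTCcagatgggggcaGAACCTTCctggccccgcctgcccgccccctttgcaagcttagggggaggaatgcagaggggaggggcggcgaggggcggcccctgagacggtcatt
Hsph1: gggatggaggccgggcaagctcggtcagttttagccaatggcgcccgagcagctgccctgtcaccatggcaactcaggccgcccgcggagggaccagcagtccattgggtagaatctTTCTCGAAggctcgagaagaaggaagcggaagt
Dnaja4: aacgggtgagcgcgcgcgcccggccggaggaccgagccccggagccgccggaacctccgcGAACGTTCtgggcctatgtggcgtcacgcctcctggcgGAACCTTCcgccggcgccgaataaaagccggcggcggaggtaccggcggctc
Hspe1: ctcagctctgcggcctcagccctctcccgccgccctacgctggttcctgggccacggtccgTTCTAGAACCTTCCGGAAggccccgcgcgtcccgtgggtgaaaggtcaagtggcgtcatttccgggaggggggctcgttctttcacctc
Hspb1 and Dnaja4 each held a pair of separate matches, and Hspe1 held overlapping matches that include runs of 3 units (GAANNTTCNNGAA or TTCNNGAANNTTC). Hspe1 and Hspd1 lie head to head, so the same stretch also counts as upstream of Hspd1.

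Among the matched members 13 of 37 (35.1%) held the inverted pair in at least 1 annotated window, against 3932 of 27025 genes in the table (14.5%). Split by the side comparisons described next, it stood upstream of 11 of 20 members higher on the ipsilateral side (55.0%), 1 of 7 lower (14.3%, Dnajb6) and 1 of 10 not called (10.0%, Stub1). Among the matched members called higher, Bag3, Hspb8, Dnajb1, Hspa14, Dnajb2, Stip1, Cacybp, Chordc1 and Hsf2 had no such letters in these windows. The members without an entry in the table were Bag4, Cryab, Dnajc5, Hsf1, Hsp90aa1, Hsp90ab1, Hspa13, Hspa8, Hspa9 and St13. The run of 3 units occurred in 3 of 37 members (8.11%), namely Hspd1, Hspe1 and Dnajb6, against 0.514% of all genes. These shares count Hspa1a and Hspa1b, with nearly the same window, and Hspd1 and Hspe1, with a shared stretch, as separate genes. A match of letters is no evidence of binding, and a window without one says only that these letters are not in it.

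**Figure D1:**
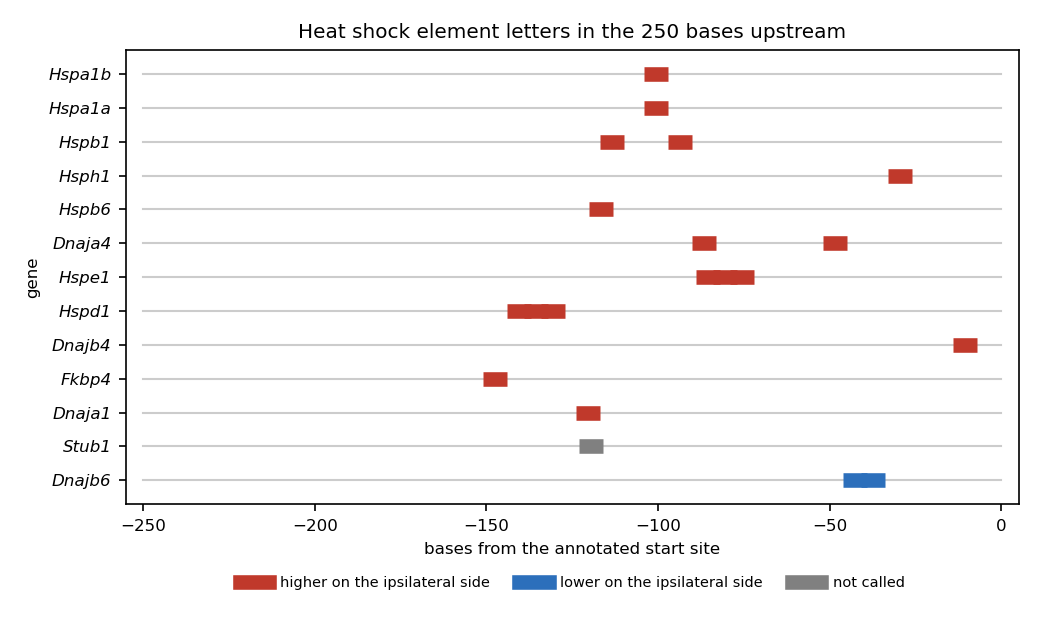
Position of heat shock element letters (GAANNTTC or TTCNNGAA) in the 250 bases before the annotated start of the 13 members that hold them; the x axis gives bases from the start site, each bar is 1 match, and colour gives the member's direction on the ipsilateral side at 6 h or 3 h. Members are ordered by their side difference at 6 h, and 11 of the 13 are higher on the ipsilateral side.

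The sides were compared to show how the injured hippocampus differed from its other hemisphere. Over both times Hspa1a, Hspa1b and Hspb1 rose 16.5-fold to 36.2-fold on the ipsilateral side, and Bag3, Cryab and Dnajb1 rose 2.25-fold to 4.89-fold. Hspa12a, Bag4 and Dnajc5 fell by 0.42 to 0.74 on the log2 scale. Averaged over the genotypes at 6 h, 32 of 48 lines were called, against 48.7% of all lines tested. Of these 22 were higher (24% of all lines) and 10 lower (24.7%). At 3 h 30 were called, against 31.6% of all lines, 22 of them higher (14.1%) and 8 lower (17.4%). A call is a Benjamini-Hochberg adjusted p under 0.05 in limma over all 18364 lines. Calls in the lower direction were no more frequent among members than among all lines at either time. In size, 11 lines were called and at least 2-fold higher at 6 h and 9 at 3 h, and none was 2-fold lower; over all lines 1128 were 2-fold higher at 6 h and 525 at 3 h. The median log2 fold change over the members was 0.12 at 6 h and 0.16 at 3 h, beside 0.02 at 6 h and 0.015 at 3 h over all lines. Without labelled Neil1-KO ipsilateral 6 h replicate 2, 23 members were higher and 9 lower at 6 h, and without WT ipsilateral 6 h replicate 2, 22 were higher and 8 lower.

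Together the members took up 1.09% to 1.49% of the reads on named genes in the 12 ipsilateral libraries (median 1.37%), against 0.868% to 0.988% in the 12 contralateral ones (median 0.923%), with no overlap. In bulk tissue, fewer (or more) cells of a type and less (or more) RNA per cell cannot be told apart, and this holds for every side comparison here.

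Within single genotypes, members called higher and lower at 6 h numbered 20 and 11 in labelled Neil1-KO (17.6% and 21.4% of all lines), 15 and 7 in Neil2-KO (12.2% and 12.6%), and 21 and 1 in WT (10.4% and 10.3%). At 3 h they numbered 19 and 4 in labelled Neil1-KO (7.2% and 9.85%), 17 and 2 in Neil2-KO (4.29% and 4.95%), and 12 and 0 in WT (2.49% and 1.79%). These 6 comparisons share no library, but their spread comes from a single fit of all 24 libraries. That fit treated the sides of an animal as separate. In either direction the members called numbered 31, 22 and 22 at 6 h (39%, 24.8% and 20.6% of all lines), and 23, 19 and 12 at 3 h (17%, 9.24% and 4.29%), in the same order of genotypes. With 2 libraries a side, single libraries weighed on these totals. At 3 h the total fell to 12 in labelled Neil1-KO without contralateral replicate 2 or ipsilateral replicate 1. In Neil2-KO it fell to 12 without contralateral replicate 1 or 2, and to 10 without ipsilateral replicate 2. In WT it fell to 4 without contralateral replicate 2 or ipsilateral replicate 2, and to 5 without ipsilateral replicate 1. At 6 h, leaving out WT contralateral replicate 2 brought the WT total of 22 to 12.

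In all 6 comparisons 9 members were called higher, which is 18.8% of the members against 1.64% of all lines: Hspa1a, Hspa1b, Hspb1, Cryab, Dnaja4, Dnajb1, Hsph1, Hsp90aa1 and Hspe1. No member was lower in all 6, as 1.05% of all lines were. At least 1 call higher was made for 22 members (45.8%, against 25.4% of all lines), and at least 1 call lower for 13 (27.1%, against 26.4%). Another 13 members had no call in any of the 6, against 48.3% of all lines. Replicates of members varied less than those of all lines in every group except WT ipsilateral at 6 h. The median SD on the log2 scale was 0.0575 against 0.101 in labelled Neil1-KO contralateral at 3 h. In WT ipsilateral at 6 h it was 0.17 against 0.164. A smaller spread makes a call easier, and its part in these shares and those above was not tested.

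**Figure D2:**
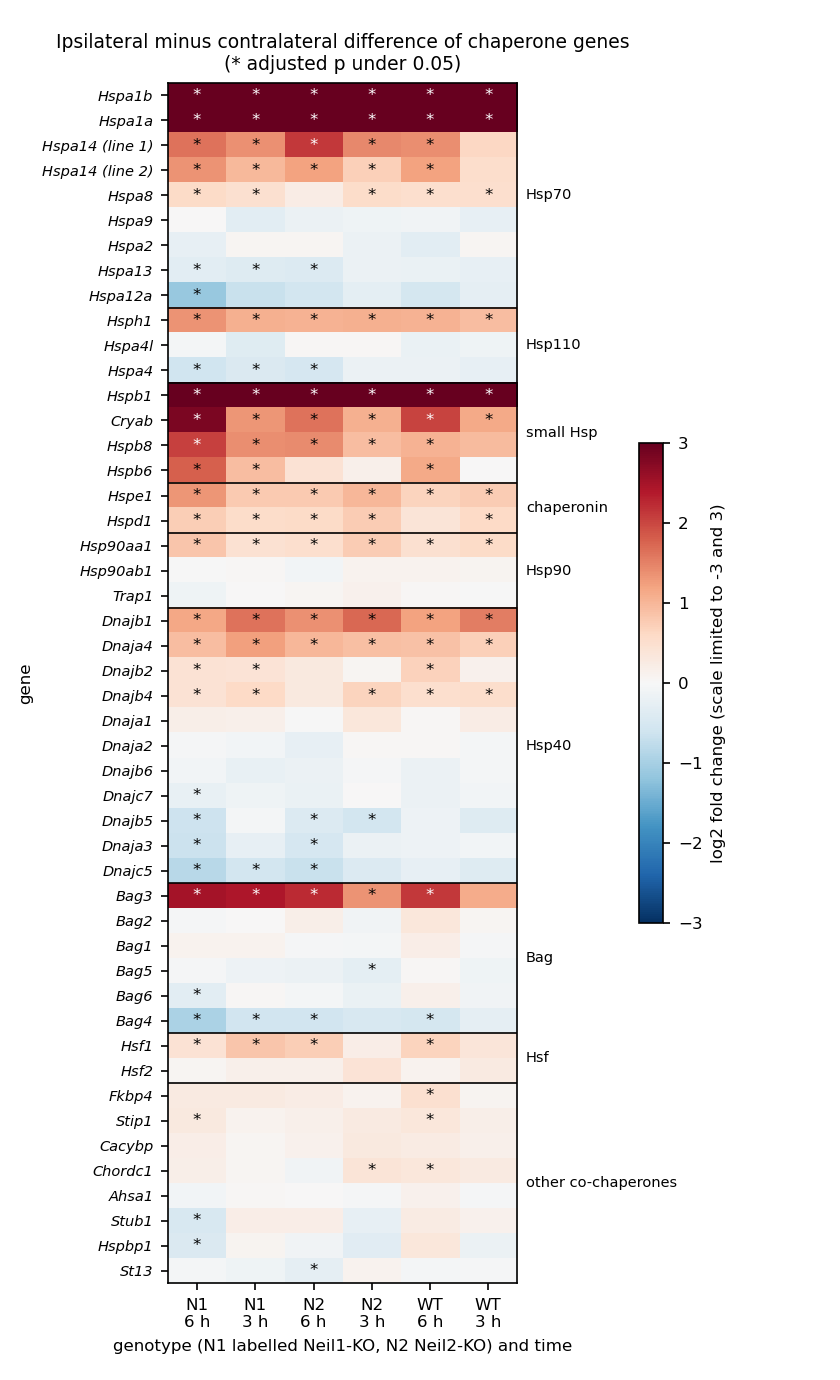
Log2 fold change, ipsilateral over contralateral, of the 48 lines (rows, grouped by family) in each genotype and time (columns; N1 is labelled Neil1-KO, N2 is Neil2-KO); colour saturates at the ends of the bar and stars mark limma adjusted p under 0.05. Hspa1a, Hspa1b and Hspb1 lie beyond the colour scale in every column, and 9 rows are starred throughout.

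Of the Hsp70 family, the inducible pair carried the largest side differences of all members. At 6 h Hspa1a had 3904, 7937 and 12190 normalized counts on the ipsilateral side (lowest, median and highest of 6 libraries), against 182, 233 and 401 on the contralateral side. The 3 h libraries had 7697, 11350 and 22320 on the ipsilateral side, against 242, 354 and 499 on the contralateral side. Every ipsilateral library lay far above every contralateral one. Its log2 fold change was 4.89 ± 0.21 at 6 h and 5.10 ± 0.21 at 3 h (SE; 29.7-fold and 34.2-fold; limma adjusted p = 2.57e-11 and 4e-11). The lowest ipsilateral value at 6 h belonged to WT replicate 2 and the highest at 3 h to labelled Neil1-KO replicate 1, whose group also held the lowest at 3 h.

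Hspa1b, the second copy, had 4786, 10290 and 15270 normalized counts on the ipsilateral side at 6 h, against 220.3, 272 and 541 on the contralateral side. Values at 3 h were 9765, 14320 and 29470, against 289, 430.4 and 601. The sides did not overlap. It rose by 4.99 ± 0.22 at 6 h and 5.18 ± 0.22 at 3 h. The copies are nearly identical and the counting may split or drop shared reads, so the values of either copy alone are uncertain. An exon of Hspa1a also overlaps Gm20481 on the opposite strand. The ratio of Hspa1b to Hspa1a reads was 1.23 to 1.32 in ipsilateral libraries and 1.11 to 1.35 in contralateral ones. Summed, the pair made up 0.0453% to 0.277% of named reads in ipsilateral libraries, against 0.00198% to 0.00515% in contralateral ones.

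Hspa14, a ribosome-associated Hsp70, rose on both of its lines, and which gene model each line counts is not given in the sources used here. An exon of Hspa14 overlaps Gm45902 on the same strand. On Hspa14 line 1 the 6 h values were 308, 458 and 623 normalized counts on the ipsilateral side, against 130, 139 and 145 on the contralateral side. On Hspa14 line 2 they were 972, 1130 and 1378, against 430.4, 468 and 556. At 3 h line 1 had 321, 405 and 496, against 123, 198 and 274, and line 2 had 734, 840.2 and 1002, against 432, 476 and 642. On neither line did the sides overlap. The log2 fold changes were 1.72 ± 0.14 at 6 h and 1.14 ± 0.14 at 3 h on the first line, and 1.25 ± 0.11 and 0.74 ± 0.11 on the second. Neither line was called in WT at 3 h, and both were called in the other 5 comparisons.

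Hspa8, the constitutive cytosolic Hsp70 (Hsc70), rose modestly. Its 6 h values were 42400, 48730 and 53830 normalized counts on the ipsilateral side, against 30450, 33900 and 45220 on the contralateral side. At 3 h they were 49600, 54810 and 58750, against 34900, 38220 and 40800. The sides separated at 3 h and overlapped at 6 h, where the lowest ipsilateral library (WT replicate 2) lay below the highest contralateral one (Neil2-KO replicate 2). The difference was 0.43 ± 0.07 at 6 h and 0.51 ± 0.07 at 3 h (adjusted p = 8.85e-05 and 4.54e-05).

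Other Hsp70 members went the other way or showed no call. Hspa12a, an atypical Hsp70, had 2302, 5108 and 5679 normalized counts on the ipsilateral side at 6 h, against 7161, 7492 and 8002 on the contralateral side. It fell by 0.74 ± 0.14 at 6 h (adjusted p = 0.000289), and its lowest value came from labelled Neil1-KO replicate 2. At 3 h its 4475, 6301 and 7082 stood against 7548, 8049 and 8489, a fall by 0.42 ± 0.14 with an adjusted p of 0.0304. Its adjusted p rose above 0.05 in 6 of 24 fits that left out 1 library (0.0652 without WT contralateral 3 h replicate 2, 0.0734 without WT ipsilateral 3 h replicate 2, 0.0675 without labelled Neil1-KO contralateral 3 h replicate 2, 0.0944 without labelled Neil1-KO ipsilateral 3 h replicate 1, 0.0676 without Neil2-KO contralateral 3 h replicate 1 and 0.0743 without Neil2-KO ipsilateral 3 h replicate 2). The 3 h call thus depends on single libraries.

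Hspa13, a microsome-associated Hsp70, had 1134, 1234 and 1441 normalized counts on the ipsilateral side at 6 h, against 1405, 1556 and 1629 on the contralateral side, and at 3 h 1077, 1226 and 1309, against 1327, 1472 and 1575. The sides overlapped at 6 h and not at 3 h, and it fell by 0.31 ± 0.06 at 6 h and by 0.27 ± 0.06 at 3 h (adjusted p = 0.000347 and 0.00237). The mitochondrial Hspa9 (mortalin) had 3466, 3653 and 3862 on the ipsilateral side at 3 h, against 4036, 4211 and 4476, and fell by 0.22 ± 0.06 (adjusted p = 0.00815). At 6 h its 3395, 3828 and 4122 stood against 3556, 4005 and 4522, with overlap and no call (-0.09 ± 0.06, adjusted p = 0.231). Hspa2, known for its role in the testis, was not called at either time (-0.17 ± 0.11 at 6 h and -0.02 ± 0.11 at 3 h).

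The Hsp110 proteins, which release ADP from Hsp70, diverged. Hsph1 (Hsp105) had 6295, 9957 and 11130 normalized counts on the ipsilateral side at 6 h, against 3609, 4126 and 5084 on the contralateral side. Its 3 h values were 8899, 9640 and 11020, against 4360, 4762 and 5330. It rose by 1.15 ± 0.09 at 6 h and 1.02 ± 0.09 at 3 h (adjusted p = 2.18e-08 and 2.25e-07), with no overlap between sides. Its relative Hspa4 had 3370, 5170 and 5368 on the ipsilateral side at 6 h, against 5873, 6316 and 7035, and at 3 h 4695, 5808 and 5891, against 6537, 6858 and 7057. Its sides did not overlap either, and it fell by 0.42 ± 0.08 at 6 h and 0.29 ± 0.08 at 3 h (adjusted p = 0.000257 and 0.00958). Hspa4l, the remaining Hsp110, was not called (-0.08 ± 0.08 and -0.15 ± 0.08).

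All 4 small heat shock proteins rose at 6 h and 3 of them at 3 h. Hspb1 (Hsp25 in mouse), which also binds actin filaments, had 985, 1857 and 3069 normalized counts on the ipsilateral side at 6 h, against 36.05, 70.8 and 162 on the contralateral side. In the 3 h libraries it had 1020, 1535 and 2911, against 26.2, 97.1 and 204. Its log2 fold change was 4.72 ± 0.33 at 6 h and 4.05 ± 0.33 at 3 h (26.3-fold and 16.5-fold; adjusted p = 6.34e-09 and 9.84e-08). The sides lay far apart. The lowest contralateral library was labelled Neil1-KO 3 h replicate 2 and the highest Neil2-KO 3 h replicate 2.

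Cryab (alpha-B-crystallin), abundant in glia and muscle, had 719, 1050 and 1299 normalized counts on the ipsilateral side at 6 h, against 109.8, 263 and 359.9 on the contralateral side. The 3 h libraries had 287, 773 and 971, against 142, 345 and 548, and the sides overlapped. The log2 fold change was 2.16 ± 0.17 at 6 h and 1.17 ± 0.17 at 3 h (adjusted p = 2.93e-08 and 6.88e-05). Within each genotype and time the ipsilateral pair lay above the contralateral pair, and at 3 h it was the ipsilateral labelled Neil1-KO replicate 2 (287) that lay among contralateral values of other genotypes. An exon of Cryab overlaps Hspb2 on the opposite strand in the GENCODE M21 annotation, and whether counting used strand is not given in the sources used here, so reads of this pair cannot be told apart.

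Hspb8, which with Bag3 directs aggregates to autophagy, had 461, 941 and 1203 normalized counts on the ipsilateral side at 6 h, against 242, 308 and 386 on the contralateral side, and at 3 h 531, 645 and 849, against 209, 318 and 378. It rose by 1.5 ± 0.16 at 6 h and 1.09 ± 0.16 at 3 h. Hspb6 (Hsp20) had 176, 270 and 288 on the ipsilateral side at 6 h, against 76.8, 91.2 and 225. It rose by 1.12 ± 0.14 at 6 h, while at 3 h its difference of 0.37 ± 0.14 was not called (adjusted p = 0.0631) unless the animal entered the fit as a block (adjusted p = 0.0203). Leaving out labelled Neil1-KO contralateral 3 h replicate 1, Neil2-KO contralateral 3 h replicate 2 or Neil2-KO ipsilateral 3 h replicate 1 also gave the 3 h call (adjusted p = 0.0378, 0.024 and 0.00853). Values at 3 h were 145, 153 and 272 on the ipsilateral side, against 72.1, 142 and 228. An exon of Hspb6 overlaps Lin37 on the opposite strand.

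Endothelial markers moved with these genes: 4 of 4 (Cldn5, Pecam1, Flt1 and Cdh5) were higher on the ipsilateral side at either time, with sums of 4729 to 10890 normalized counts on the ipsilateral side and 2699 to 3888 on the contralateral side, and none at 0 in every library. Choroid plexus markers summed to 212 to 27680 on the ipsilateral side and 333 to 36880 on the contralateral side. Of 5 astrocyte markers 2 were higher and 1 lower on the ipsilateral side at 6 h, and none was called at 3 h. Of 5 microglial markers 1 was higher and 2 were lower at either time. Of 6 markers of the oligodendrocyte lineage 1 was lower at 6 h and 2 at 3 h, with none higher. The part of any of these cell types in the chaperone differences was not tested.

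**Figure D3:**
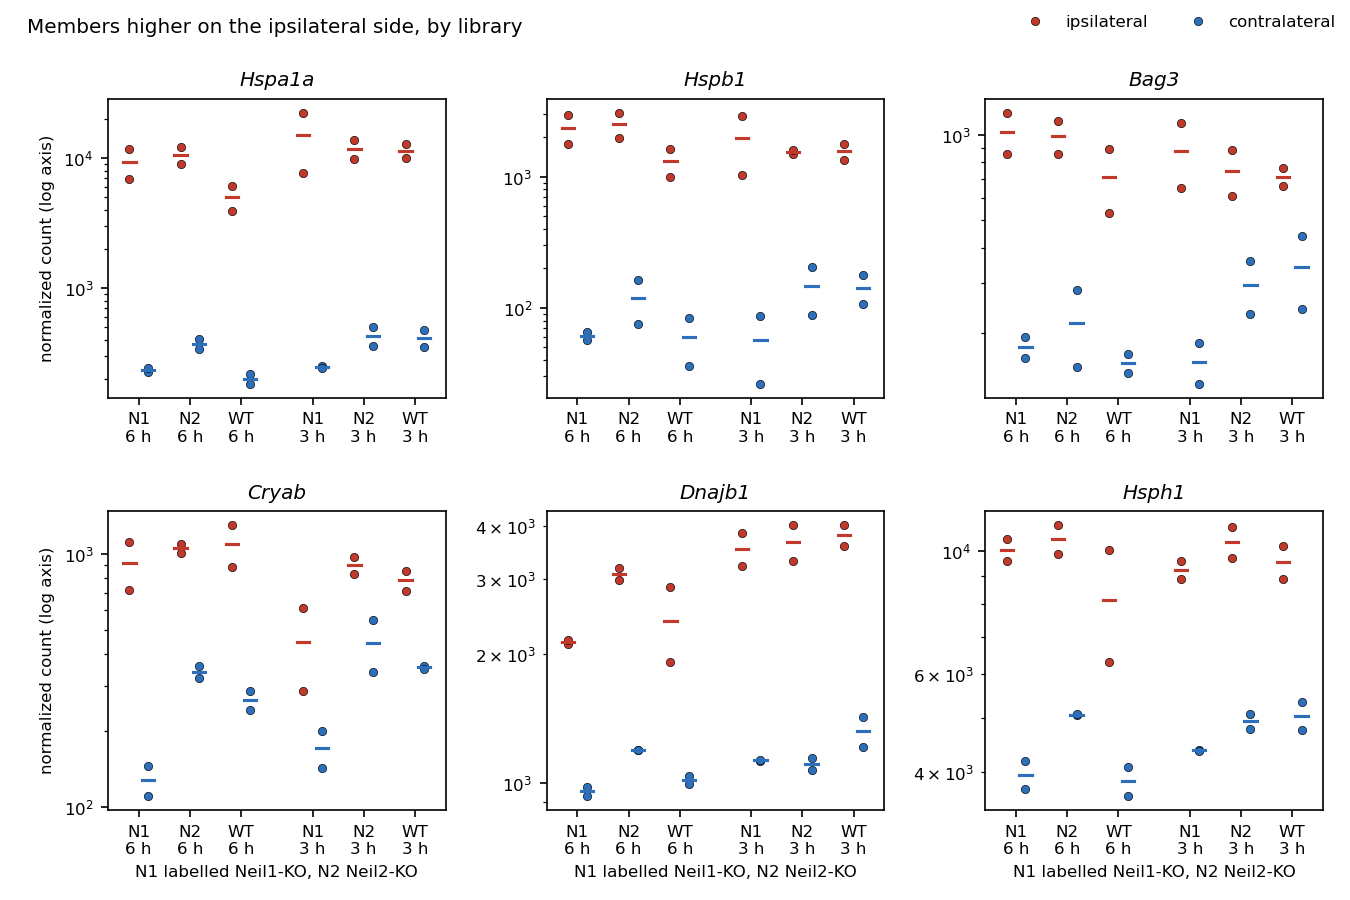
Normalized counts (log axis) of 6 members in each library, by genotype and time (N1 is labelled Neil1-KO, N2 is Neil2-KO), ipsilateral red and contralateral blue; points are libraries and bars are means of 2. Every ipsilateral pair lies above its contralateral pair, with Hspa1a and Hspb1 the farthest apart.

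The mitochondrial chaperonin rose as a pair. Hspe1 (Hsp10, the lid) had 1187, 1889 and 2441 normalized counts on the ipsilateral side at 6 h, against 864.5, 934 and 1202 on the contralateral side, a rise by 0.93 ± 0.10, and it rose by 0.84 ± 0.10 at 3 h. Hspd1 (Hsp60, the folding chamber) had 3833, 5913 and 6585 at 6 h, against 3677, 3727 and 4134, a rise by 0.57 ± 0.09, and it rose by 0.64 ± 0.09 at 3 h. For both the sides overlapped at 6 h, where WT replicate 2 was the lowest ipsilateral library, and did not overlap at 3 h. Trap1, the mitochondrial Hsp90, was not called and differed by -0.01 ± 0.06 at 6 h and 0.04 ± 0.06 at 3 h.

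The cytosolic Hsp90 isoforms split. Hsp90aa1, the stress-inducible isoform, had 27150, 36470 and 38480 normalized counts on the ipsilateral side at 6 h, against 20170, 23060 and 25310 on the contralateral side. Its 3 h values were 32710, 36340 and 38140, against 21960, 23480 and 25920. The sides were apart at both times, and the rise was 0.61 ± 0.08 at 6 h and 0.60 ± 0.08 at 3 h (1.52-fold and 1.51-fold; adjusted p = 3.33e-06 and 1.34e-05). Hsp90ab1, the constitutive isoform, had 34930, 37990 and 42500 on the ipsilateral side at 6 h, against 36110, 37220 and 45360. Its difference was 0.01 ± 0.07 at 6 h (95% interval -0.13 to 0.15) and 0.08 ± 0.07 at 3 h (-0.06 to 0.21), neither called (adjusted p = 0.911 and 0.401). The sign at 6 h is undetermined, since leaving out 1 library made it negative in 4 of 24 fits.

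Of the 11 J-domain proteins, 4 rose and 5 fell at 6 h (24% and 24.7% of all lines), and 4 rose and 2 fell at 3 h (14.1% and 17.4%). Dnajb1, the stress-inducible partner of Hsp70 (Hsp40), had 1917, 2521 and 3191 normalized counts on the ipsilateral side at 6 h, against 929, 1015 and 1197 on the contralateral side. In the 3 h libraries it had 3219, 3724 and 4023, against 1073, 1139 and 1425. It rose by 1.25 ± 0.09 at 6 h and 1.63 ± 0.09 at 3 h (2.37-fold and 3.09-fold; adjusted p = 4.65e-09 and 3.89e-10). Dnaja4 had 258, 293 and 432 at 6 h, against 129.9, 159.5 and 243, and at 3 h 316, 353 and 500.1, against 137, 203 and 237. It rose by 0.94 ± 0.11 at 6 h and 0.96 ± 0.11 at 3 h, without overlap of the sides. An exon of Dnaja4 overlaps Wdr61 on the opposite strand.

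Dnajb4 rose by 0.41 ± 0.07 at 6 h and 0.60 ± 0.07 at 3 h. Dnajb2, a neuronal J-protein that carries ubiquitinated clients, rose by 0.48 ± 0.08 at 6 h, and its 0.20 ± 0.08 at 3 h was not called (adjusted p = 0.054). Dnaja1, which overlaps Smu1 on the opposite strand, rose by 0.25 ± 0.07 at 3 h and differed by 0.06 ± 0.07 at 6 h.

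Dnajc5 (cysteine string protein), the J-protein of synaptic vesicles, led the J-domain proteins that fell. It had 4573, 6609 and 8875 normalized counts on the ipsilateral side at 6 h, against 9501, 9842 and 10470 on the contralateral side. The 3 h libraries had 6155, 7446 and 8085, against 9572, 10010 and 10450. All ipsilateral libraries lay below all contralateral ones, and the fall was by 0.59 ± 0.08 at 6 h and by 0.45 ± 0.08 at 3 h (adjusted p = 5.51e-06 and 0.000205). 

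Dnajb5 had 1532, 2265 and 2442 normalized counts on the ipsilateral side at 6 h, against 2461, 2901 and 3175 on the contralateral side, and at 3 h 2639, 2838 and 2989, against 2832, 3722 and 4245. It fell by 0.40 ± 0.08 at 6 h, without overlap, and by 0.33 ± 0.08 at 3 h, with overlap. The mitochondrial Dnaja3 (Tid1) had 646, 826 and 939 at 6 h, against 946.5, 1022 and 1476, and fell by 0.43 ± 0.08 without overlap. Dnajc7, which links Hsp70 to Hsp90, had 2231, 2361 and 2563 at 6 h, against 2463, 2781 and 2859, and fell by 0.21 ± 0.05 with overlap. Neither was called at 3 h (-0.16 ± 0.08 for Dnaja3 and -0.07 ± 0.05 for Dnajc7). An exon of Dnajc7 overlaps Nkiras2 on the opposite strand.

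Dnajb6, which suppresses aggregation of polyglutamine proteins, had 2792, 3035 and 3119 normalized counts on the ipsilateral side at 6 h, against 3194, 3254 and 3594 on the contralateral side, and fell by 0.15 ± 0.05 without overlap. It overlaps Gm5129 on the opposite strand. Its adjusted p of 0.026 became 0.0512 in edgeR, 0.0858 with only the compared groups, and 0.0521 to 0.0878 in 6 of 24 fits without 1 library (WT contralateral replicate 1, WT ipsilateral replicate 2, labelled Neil1-KO contralateral replicate 1 or 2, Neil2-KO contralateral replicate 1 or Neil2-KO ipsilateral replicate 1, each at 6 h). Dnaja2 was not called (-0.09 ± 0.06 and -0.03 ± 0.06).

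Among the Bag proteins, nucleotide exchange factors of Hsp70, Bag3 rose and Bag4 fell. Bag3, the stress-inducible member that routes clients to autophagy, had 529.9, 874.5 and 1200 normalized counts on the ipsilateral side at 6 h, against 144, 166 and 283 on the contralateral side. Values at 3 h were 608, 712 and 1103, against 132, 238 and 439.6. It rose by 2.29 ± 0.20 at 6 h and 1.63 ± 0.20 at 3 h (4.89-fold and 3.1-fold; adjusted p = 8.4e-08 and 1.22e-05). Within genotypes it was called in 5 of the 6 comparisons, and WT at 3 h (1.12 ± 0.35, adjusted p = 0.0827) was the exception, where contralateral replicate 1 was the highest of its side at 439.6.

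Bag4, known as a silencer of death domains, had 385, 612 and 726 normalized counts on the ipsilateral side at 6 h, against 898, 922 and 977 on the contralateral side. Its 3 h values were 533, 717 and 809.7, against 895, 950.2 and 1026. The sides did not overlap, and it fell by 0.68 ± 0.09 at 6 h and by 0.44 ± 0.09 at 3 h (adjusted p = 9.11e-06 and 0.00136). An exon of Bag4 overlaps Gm17484 on the opposite strand. Bag5 had 621, 645 and 662 on the ipsilateral side at 3 h, against 692, 729.8 and 791, and fell by 0.19 ± 0.05. It differed by -0.06 ± 0.05 at 6 h, without a call, and Bag1, Bag2 and Bag6 were not called at either time.

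Of the factor genes Hsf1 rose at both times and Hsf2 at 3 h. Hsf1, the main activator of the response, had 492, 567 and 658 normalized counts on the ipsilateral side at 6 h, against 325.5, 370.5 and 432 on the contralateral side. In the 3 h libraries it had 446, 517 and 629, against 313, 378 and 458. It rose by 0.61 ± 0.08 at 6 h, without overlap, and by 0.47 ± 0.08 at 3 h, with overlap (adjusted p = 8.23e-06 and 0.000331). Hsf1 is controlled mainly at the protein level, which RNA counts do not show. Hsf2 rose by 0.28 ± 0.08 at 3 h and differed by 0.11 ± 0.08 at 6 h (adjusted p = 0.31).

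Of the other 8 co-chaperones 3 rose and 1 fell at 6 h (24% and 24.7% of all lines), and 3 rose at 3 h (14.1%). Stip1 (Hop), the adaptor between Hsp70 and Hsp90, rose by 0.26 ± 0.06 at 6 h and 0.19 ± 0.06 at 3 h, and Cacybp rose by 0.18 ± 0.06 and 0.17 ± 0.06. Fkbp4, an immunophilin of steroid receptor complexes, rose by 0.33 ± 0.07 at 6 h, and Chordc1, an Hsp90 partner, by 0.24 ± 0.06 at 3 h. St13 (Hip), which stabilizes the ADP-bound state of Hsp70, had 3326, 3580 and 3876 normalized counts on the ipsilateral side at 6 h, against 3659, 3810 and 4519 on the contralateral side, and fell by 0.13 ± 0.05 with overlap. The St13 call (adjusted p = 0.0401) was lost in edgeR (0.0766), with the animal as a block (0.0523) with only the compared groups (0.143), with no filter on low values (0.052) and in 11 of 24 fits without 1 library (0.0511 to 0.133; WT contralateral 6 h replicate 1, WT ipsilateral 3 h replicate 1 or 2, WT ipsilateral 6 h replicate 2, labelled Neil1-KO contralateral 6 h replicate 1 or 2, labelled Neil1-KO ipsilateral 6 h replicate 2, Neil2-KO contralateral 6 h replicate 2, Neil2-KO ipsilateral 3 h replicate 1 or 2 and Neil2-KO ipsilateral 6 h replicate 1). Ahsa1, which speeds the ATPase of Hsp90, the ubiquitin ligase Stub1 (CHIP) and the exchange factor Hspbp1 were not called at either time, with 6 h differences of 0.01 ± 0.05, -0.01 ± 0.09 and -0.07 ± 0.09.

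Neuronal and hippocampal markers were lower together with the falling members. Of 6 neuronal markers (Rbfox3, Map2, Syt1, Snap25, Nefl and Tubb3), 6 were lower on the ipsilateral side at 6 h and 5 at 3 h, with sums of 40590 to 80030 on the ipsilateral side at 6 h, against 95330 to 111300 on the contralateral side, and of 65710 to 83350 at 3 h, against 99610 to 107400. Of 5 hippocampal markers, 5 were lower at 6 h and 3 at 3 h. None of these markers was at 0 in every library, and their part in the falls of Dnajc5, Hspa12a and the rest was not tested.

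**Figure D4:**
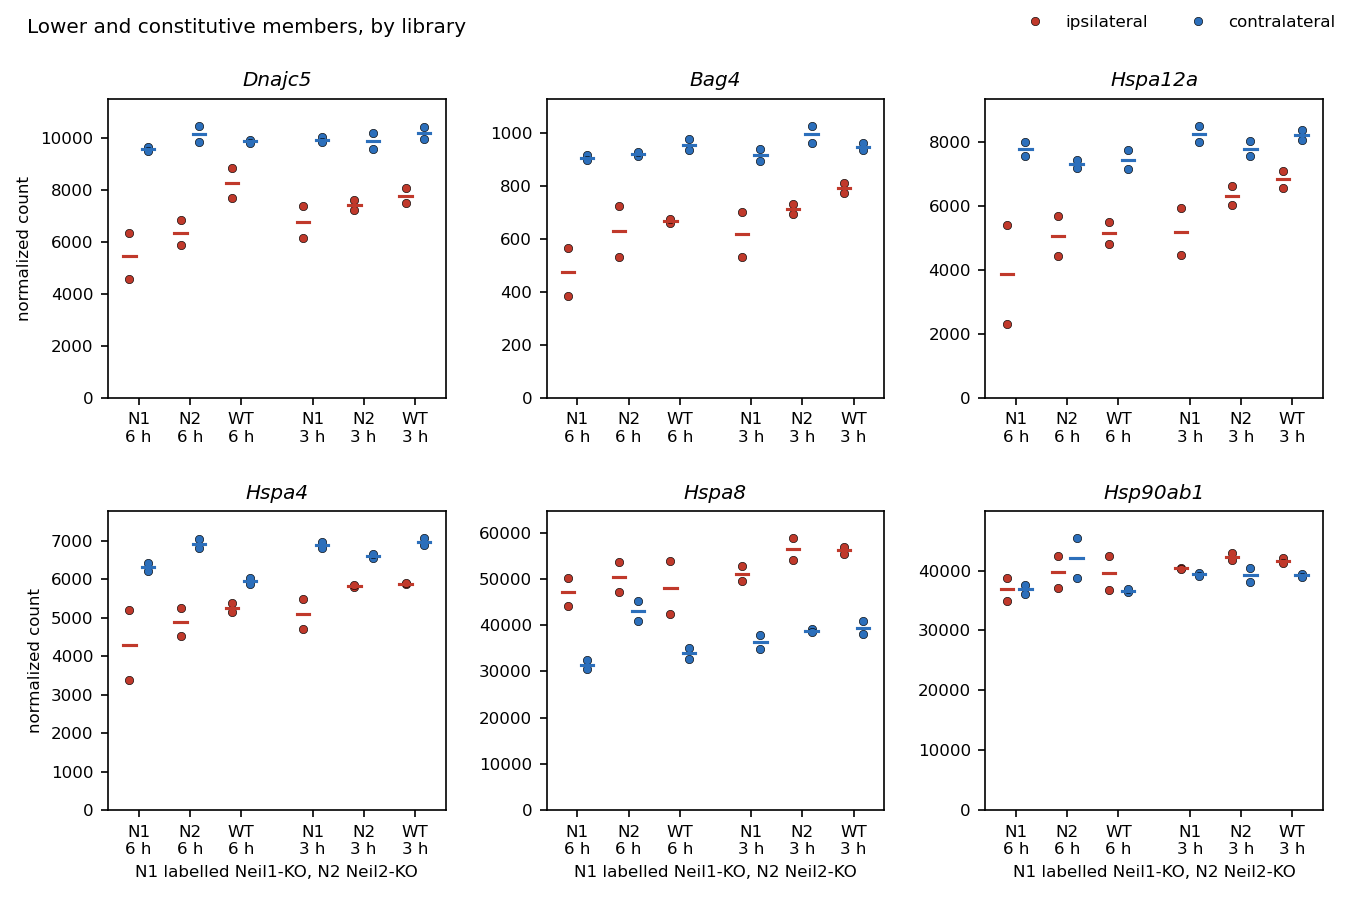
Normalized counts (axis starts at 0) of 4 members that fell, of the constitutive Hspa8 and of Hsp90ab1 in each library, by genotype and time (N1 is labelled Neil1-KO, N2 is Neil2-KO), ipsilateral red and contralateral blue; points are libraries and bars are means of 2. Ipsilateral points lie below contralateral ones for Dnajc5, Bag4, Hspa12a and Hspa4, above them within each group for Hspa8, and overlap them for Hsp90ab1.

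Next, 6 h was compared with 3 h to follow the response in time. On the ipsilateral side 9 members were called (12.7% of all lines), 3 higher at 6 h (5.14%) and 6 lower (7.52%). Dnajb1 fell by 0.55 ± 0.09, with 1917 to 3191 normalized counts at 6 h against 3219 to 4023 at 3 h, so that no library overlapped (adjusted p = 0.0011). Dnajb5 (-0.38 ± 0.08) and Trap1 (-0.23 ± 0.06) also fell without overlap, and Hspa2 (-0.34), Dnaja3 (-0.27) and Chordc1 (-0.23) fell with overlap. The members that rose were Cryab (0.59 ± 0.17), Hspb6 (0.53 ± 0.14) and Hspa14 line 2 (0.43 ± 0.11), with adjusted p of 0.0332, 0.0233 and 0.0144. Hspa1a and Hspa1b were lower at 6 h by estimate (-0.64 ± 0.21 and -0.63 ± 0.22) without passing the test (adjusted p = 0.0538 and 0.0624). The total of 9 calls became 16 without labelled Neil1-KO ipsilateral 6 h replicate 1, 4 without WT ipsilateral 3 h replicate 1 and 2 without Neil2-KO ipsilateral 3 h replicate 1. DESeq2 called 15, and a fit with only the compared groups called 1.

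On the contralateral side limma called none of the 48 lines between 6 h and 3 h (0.332% of all lines), with 9 at an unadjusted p under 0.05, edgeR called 0 and DESeq2 called 2. Without labelled Neil1-KO ipsilateral 6 h replicate 1 or 2, limma called 1. The estimates for the most inducible genes lay below 0, at -0.44 ± 0.21 for Hspa1a (adjusted p = 0.403) and -0.41 ± 0.33 for Hspb1 (adjusted p = 0.654). Most members called lower at 6 h on the ipsilateral side also had lower contralateral means at 6 h. These were 1055 against 1186 normalized counts at 3 h for Dnajb1, 2872 against 3601 for Dnajb5 and 1021 against 1154 for Trap1. Hspa2 had 1014 against 1166 and Chordc1 842.1 against 916.6, while Dnaja3 had 1103 against 1091.

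The side difference itself was larger at 6 h for Cryab alone, by 0.99 ± 0.25 on the log2 scale (adjusted p = 0.047), where 1.9% of all lines were called, 1.43% higher and 0.463% lower. The Cryab side difference at 6 h and at 3 h was 2.81 and 1.31 for labelled Neil1-KO mice, 1.62 and 1.06 for Neil2-KO mice, and 2.03 and 1.13 for WT mice, so it was larger at 6 h in each genotype. The call was lost in edgeR (adjusted p = 0.0511) and in 18 of the 24 fits without 1 library (0.81 to 1.17 over all 24, adjusted p = 0.0118 to 0.115). It held without WT ipsilateral 6 h replicate 1, labelled Neil1-KO contralateral 3 h replicate 2, labelled Neil1-KO ipsilateral 3 h or 6 h replicate 1, or Neil2-KO contralateral or ipsilateral 3 h replicate 2, and was lost without any other library. Members called numbered 0 to 3 over those fits, 4 in DESeq2 and 2 with animal blocks. Hspb6 (0.76 ± 0.20, adjusted p = 0.066), Bag3 (0.66 ± 0.29, 0.256) and Dnajb1 (-0.38 ± 0.12, 0.108) did not pass. For Hspa1a the change was -0.20 ± 0.30 with a 95% interval of -0.82 to 0.42.

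**Figure D5:**
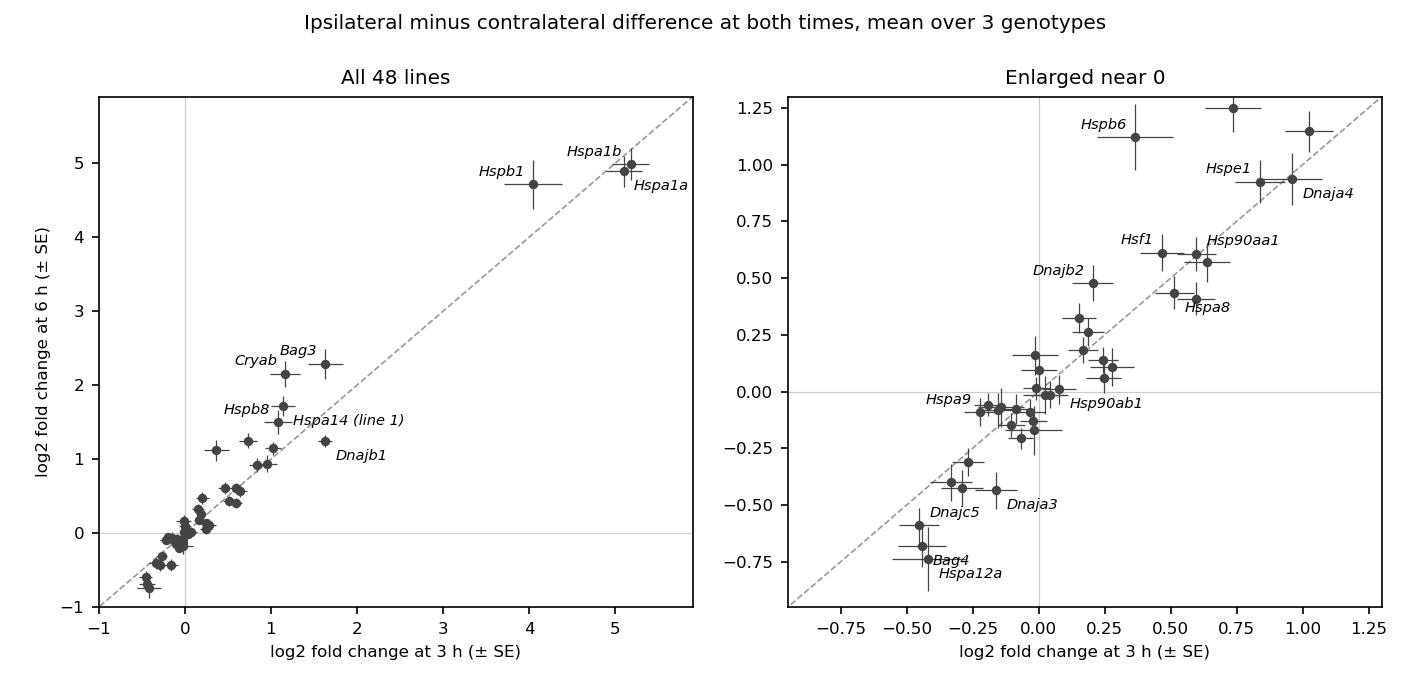
Log2 fold change, ipsilateral over contralateral and averaged over the 3 genotypes, at 6 h (y axis) against 3 h (x axis) for the 48 lines, with SE bars and a dashed line of equality; the right panel enlarges the region near 0. Most points lie near the line, Cryab, Hspb6 and Bag3 lie above it, and Dnajb1 lies below it.

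Finally the genotypes were compared with WT on each side, over both times. Both comparisons use the same 8 WT libraries. On the ipsilateral side 2 members were lower in labelled Neil1-KO and none higher, where 9.31% of all lines were called, 7.4% lower and 1.91% higher. Dnajc5 had 4573 and 6364 normalized counts at 6 h and 6155 and 7399 at 3 h in labelled Neil1-KO, against 7700 and 8875 at 6 h and 7494 and 8085 at 3 h in WT. No labelled Neil1-KO library reached the lowest WT one, and the difference was -0.41 ± 0.09 (adjusted p = 0.0149). Bag4 had 385 and 566 at 6 h and 533 and 703 at 3 h in labelled Neil1-KO, against 659 and 674 at 6 h and 774 and 809.7 at 3 h in WT, a difference of -0.44 ± 0.11 (adjusted p = 0.0242) with overlap. In Neil2-KO neither gene was called, but each ipsilateral mean also lay below that of WT. Dnajc5 averaged 6364 ± 694 at 6 h and 7431 ± 287 at 3 h in Neil2-KO, against 8288 ± 831 and 7789 ± 418 in WT (SD). Bag4 averaged 629.2 ± 136 and 712.7 ± 25.2, against 666.3 ± 10.7 and 791.9 ± 25.2.

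Neuronal markers were lower in the same comparison: 5 of 6 (Map2, Nefl, Rbfox3, Snap25 and Syt1) were called lower in labelled Neil1-KO and none higher. Their sums with Tubb3 were 60540 and 40590 normalized counts at 6 h and 65710 and 73870 at 3 h in labelled Neil1-KO, against 71870 and 80030 at 6 h and 83350 and 79010 at 3 h in WT. Of the thalamic markers 1 of 5 (Tcf7l2) was also called lower. At 6 h it had 122.6 and 230.5 normalized counts in labelled Neil1-KO, against 582.1 and 939.6 in the WT libraries that stood apart above. At 3 h it had 172 and 95.26 in labelled Neil1-KO, against 84.28 and 122.1 in WT. None of these markers was at 0 in every library, and their part in the lower Dnajc5 and Bag4 was not tested.

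Neither call held under every alternative. When the fit held the compared groups alone the estimates stayed at -0.41 for Dnajc5 and -0.44 for Bag4, and both had an adjusted p of 0.26. With a term for female animals Bag4 was at -0.46 with an adjusted p of 0.051. The Dnajc5 call was lost without WT ipsilateral 3 h replicate 1 (0.0836), WT ipsilateral 6 h replicate 2 (0.0734), labelled Neil1-KO ipsilateral 3 h replicate 1 (0.0895) or 6 h replicate 2 (0.0661). The Bag4 call was lost without those 4 libraries (0.102, 0.0832, 0.132 and 0.141) and without WT ipsilateral 3 h replicate 2 (0.0563). The number of members called was 0 without WT ipsilateral 3 h replicate 1, WT ipsilateral 6 h replicate 2 or labelled Neil1-KO ipsilateral 6 h replicate 2, and 1 without WT ipsilateral 3 h replicate 2 or labelled Neil1-KO ipsilateral 3 h replicate 1. It was higher without WT ipsilateral 6 h replicate 1, labelled Neil1-KO ipsilateral 3 h replicate 2 or labelled Neil1-KO ipsilateral 6 h replicate 1. In each of these fits calls over all lines were more numerous too. DESeq2 called 4 members, beside 2418 of all 18364 lines.

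In the contralateral hippocampus no member was called in labelled Neil1-KO against WT (0.103% of all lines; 5 at an unadjusted p under 0.05, 0 in edgeR, 1 in DESeq2). Without any 1 of the 4 labelled Neil1-KO ipsilateral libraries, 1 was called. The nearest was Cryab, with 109.8 and 144.9 normalized counts at 6 h and 142 and 198.5 at 3 h in labelled Neil1-KO, against 240.5 and 285.9 at 6 h and 349.5 and 360.7 at 3 h in WT. These libraries did not overlap, and the difference of -1.06 ± 0.21 had an adjusted p of 0.0733. On the ipsilateral side the Cryab difference was -0.58 ± 0.21 (adjusted p = 0.0885).

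For Neil2-KO against WT limma called no member on the ipsilateral side (0.109% of all lines; 7 at an unadjusted p under 0.05, 0 in edgeR and in DESeq2), or on the contralateral side (0.0817%; 4 at an unadjusted p under 0.05, 0 in edgeR, 1 in DESeq2). Without WT ipsilateral 6 h replicate 1, 4 members were called on the ipsilateral side. Hspb6 had the smallest p on the contralateral side, with 182.6 and 224.5 normalized counts at 6 h and 147.8 and 228.1 at 3 h in Neil2-KO, against 79.56 and 99.07 at 6 h and 135.4 and 159 at 3 h in WT (0.75 ± 0.18, adjusted p = 0.205).

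The side response was then set against that of WT. No member was called in labelled Neil1-KO (0% of all lines; 10 at an unadjusted p under 0.05, 0 in edgeR and in DESeq2) or in Neil2-KO (0%; 2 at an unadjusted p under 0.05, 0 in edgeR and in DESeq2). Without labelled Neil1-KO ipsilateral 6 h replicate 1, or without WT ipsilateral 6 h replicate 1, the first comparison gained calls among members. It gained calls over all lines in those fits too. The estimates are wide at this number of animals: for Hspa1a the response in labelled Neil1-KO was 0.81 ± 0.36 above WT (95% interval 0.04 to 1.57, adjusted p = 0.327), and for Hspb1 it was 1.18 ± 0.58 above (-0.03 to 2.39, adjusted p = 0.356). In Neil2-KO the differences from WT were 0.11 ± 0.36 for Hspa1a (-0.66 to 0.87) and -0.01 ± 0.58 for Hspb1 (-1.22 to 1.20).

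Chaperone genes outside the set came from a list of 59, of which 58 were tested. At 6 h 10 were higher and 11 lower on the ipsilateral side, and at 3 h 5 were higher and 7 lower. These 21 and 12 calls are 36.2% and 20.7% of the list, below the 48.7% and 31.6% of all lines. Of 6 chaperones of the endoplasmic reticulum 3 rose at either time: the collagen chaperone Serpinh1 (1.84 ± 0.13 at 6 h and 1.36 ± 0.13 at 3 h), the lumenal Hsp70 Hspa5 (1.60 ± 0.11 and 1.02 ± 0.11) and the lumenal Hsp90 Hsp90b1 (0.39 ± 0.08 and 0.25 ± 0.08). Of 16 further J-domain genes, 4 rose and 6 fell at 6 h, and 1 rose and 6 fell at 3 h. Dnajb9, induced by endoplasmic reticulum stress, rose by 0.76 ± 0.07 at 6 h and 0.56 ± 0.07 at 3 h, and Dnajb14 fell by 0.80 ± 0.08 and 0.56 ± 0.08.

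Of 8 further Hsp90 cofactors 1 rose and 2 fell at 6 h, and 1 fell at 3 h. Fkbp5, a glucocorticoid-induced immunophilin, fell by 0.81 ± 0.07 at 6 h and 0.97 ± 0.07 at 3 h, with 822 to 979.9 normalized counts on the ipsilateral side at 6 h, against 1385 to 1702 on the contralateral side. Of 8 subunits of the cytosolic chaperonin TRiC, none was called at 3 h, and 3 fell at 6 h (Cct6a by 0.22 ± 0.06, Tcp1 and Cct8 by 0.17 ± 0.06). Of 6 prefoldin subunits Pfdn4 rose (0.24 ± 0.08 at 6 h and 0.30 ± 0.08 at 3 h), and of 4 small heat shock genes tested Hspb2, which overlaps Cryab, rose at 6 h (1.56 ± 0.54, with 5.12 to 25.0 normalized counts on the ipsilateral side against 0 to 7.34). The 4 genes of further heat shock factors and of proteins that bind such factors showed no call, and neither did the 6 mitochondrial genes.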

How the data were processed

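RNA of 24 mouse hippocampus libraries was sequenced, and the deposited table holds signal values, gene counts divided by size factors, with 33084 lines, of which 10770 (32.55%) carry no gene name and were left out of the tests. The authors' reads were trimmed with Trim Galore, and HISAT2, featureCounts, SAMtools and DESeq2 were also used, on GRCm39, per the submitters' processing notes, which were read here without versions. Whole reads were recovered for 100% of the deposited values within 1e-06, and their sum over all lines gives the depth per library.

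In R 4.3.3, limma 3.58.1 was fitted with a mean-variance trend to log2(normalized count + 1), with 1 mean for each of the 12 groups and 12 residual degrees of freedom, on lines with at least 10 in 2 libraries. Fold changes on this scale understate those of low genes. Tests were two-sided, and Benjamini-Hochberg adjustment ran over all lines tested. The script was tested on simulated data. Alternatives were a pseudocount of 5, no filter, edgeR 4.0.16 and DESeq2 1.42.0 on the recovered reads, only the compared groups, a replicate block, a term for female animals, and each library left out. Nothing says that the replicates came from separate litters, so p-values measure the spread between these samples.

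The pairing of sides comes from the study's design text. An animal was taken as female when Xist exceeded 1000 normalized counts in both of its libraries, so this sex is no check of the pairing. The deviations of same-numbered sides correlated at 0.155 (6 h) and 0.271 (3 h) for labelled Neil1-KO animals, 0.035 and 0.054 for Neil2-KO, and -0.003 and -0.006 for WT. The members and lists were chosen with earlier results of these data known. Values are printed for the 12 members with the largest side change among those averaging at least 50, for members called between genotypes, between times by at least 0.5 or lower on the ipsilateral side, and for Hspa8, Hsp90aa1, Hsp90ab1 and Hsf1. Other chaperone genes are named when called, up to 3 per list by adjusted p. Exon overlaps come from GENCODE M21, and sequences from RefSeq (GRCm38.p6).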

Additional observations from a re-analysis of the deposited data

Results flagged for a closer look

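The side difference of Cryab was larger at 6 h than at 3 h by 0.987 ± 0.246 on the log2 scale (SE; limma, Benjamini-Hochberg adjusted p = 0.047), a difference between the effects at the 2 times. It was larger at 6 h in each of the 3 genotypes. It was the single member with this call, and most fits that left out 1 library lost it.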

How the results depend on the processing

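Of 59 results for named members, 51 kept their direction and their side of the threshold under all alternatives run. Of 1829 alternative values, 60 lost a call, 4 gained one and 4 changed sign. All 4 sign changes concern Hsp90ab1 at 6 h, which was not called (-0.024 without WT ipsilateral replicate 1, -0.015 without labelled Neil1-KO ipsilateral replicate 1, -0.027 without Neil2-KO contralateral replicate 1 and -0.021 without Neil2-KO ipsilateral replicate 2, over a range of -0.027 to 0.048 for all 24 libraries). With only the compared groups, members called numbered 16 at 6 h for the side difference of labelled Neil1-KO, 1 for 6 h against 3 h on either side, 1 for labelled Neil1-KO against WT contralaterally and 0 ipsilaterally, where a term for female animals gave 1. DESeq2 gave 4 for the change of the side response in time, 2 contralaterally and 15 ipsilaterally for 6 h against 3 h, 1 contralaterally and 4 ipsilaterally for labelled Neil1-KO against WT, and 1 for Neil2-KO against WT contralaterally. edgeR gave 0 for the change of the side response in time. With the replicate block that number was 2, Hspb6 at 3 h gained its call (adjusted p = 0.0203) and St13 at 6 h lost it (0.0523), and no other named call changed.

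Without 1 library, members called between sides ranged over 23 to 31 at 6 h and 12 to 27 at 3 h in labelled Neil1-KO, 15 to 24 and 10 to 24 in Neil2-KO, 12 to 23 and 4 to 15 in WT, and 30 to 33 and 26 to 32 in the mean over genotypes. They ranged over 0 to 3 for the side response in time, and over 2 to 16 ipsilaterally and 0 to 1 contralaterally for 6 h against 3 h. For labelled Neil1-KO against WT they ranged over 0 to 13 ipsilaterally, 0 to 1 contralaterally and 0 to 4 for the side response. For Neil2-KO against WT they ranged over 0 to 4 ipsilaterally, and were 0 contralaterally and for the side response. The causes were not tested. Groups of 2 limit the precision, and leaving out 1 leaves a lone library that is assumed to vary like the other groups.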
